A study of Mus musculus with 9 samples.

Results

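Cdkn1a, Bax, Bbc3, Pmaip1, Mdm2, Ccng1, Casp8, Fas and Mlkl are genes of the p53 response and of programmed cell death, and their RNA was followed here in the injured mouse spinal cord. They were taken as a list of 9 symbols matched to the Ensembl identifiers of the count table, which holds 52550 genes. All 9 were found, and all 9 passed the filter on low counts that left 18699 genes to test. Their levels played no part in how the symbols were matched, but the list was chosen with earlier results of these data known. RNA came from the cord of 9 adult female C57BL/6N mice, with 3 mice in each of 3 groups, and was taken from a segment around the injury site on day 7 after surgery. Sham mice had the vertebral lamina removed and no contusion. SCI mice had a spinal cord contusion and injections of DMSO, the vehicle. SCI+FIPI mice had the same contusion and injections of FIPI, a small molecule that inhibits the phospholipase D enzymes. Contusion is thus shared by both injured groups. DMSO injection is described for the SCI mice and not for the Sham mice, so that injury and vehicle cannot be told apart between those groups. Each segment mixes every cell type of the cord with the cells that entered it, and there was 1 time point.

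p53 is a transcription factor that accumulates after DNA damage and other stress and switches on genes that halt the cell cycle or kill the cell. Cdkn1a and Ccng1 belong to the cell cycle arm, Bax, Bbc3 and Pmaip1 to the mitochondrial arm of apoptosis, and Mdm2 encodes the ubiquitin ligase that marks p53 for destruction and so closes a feedback loop. Fas is a death receptor that activates the protease caspase-8, encoded by Casp8, and Mlkl encodes the pore-forming executioner of necroptosis, a form of death that caspase-8 holds back.

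Start-site sequence was available from RefSeq (GRCm38.p6) for 8 of the 9 genes, in 11 windows that reach from 250 bases before to 50 bases after an annotated start. Both strands were searched for the 10-base consensus half-site of p53. It was found in 4 of the 11 windows, which belong to 4 of the 8 genes (Cdkn1a, Bax, Mdm2 and Ccng1). Of all 32851 RefSeq windows of the same length, 8.36% hold it. The 250 bases upstream of these 4 starts are shown because they are the members with a match to the p53 motif. Capitals mark the match, and the other bases are in lower case, 5′ to 3′ on the strand of the gene. The intervals are chr17:29090729-29090978 (plus strand) for Cdkn1a, chr7:45466899-45467148 (minus strand) for Bax, chr10:117710759-117711008 (minus strand) for Mdm2 and chr11:40755287-40755536 (minus strand) for Ccng1.
Cdkn1a: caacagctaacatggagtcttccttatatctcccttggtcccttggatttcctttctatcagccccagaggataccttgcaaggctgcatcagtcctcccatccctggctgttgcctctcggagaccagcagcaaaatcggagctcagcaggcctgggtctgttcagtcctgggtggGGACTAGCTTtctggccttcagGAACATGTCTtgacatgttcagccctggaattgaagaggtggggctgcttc
Bax: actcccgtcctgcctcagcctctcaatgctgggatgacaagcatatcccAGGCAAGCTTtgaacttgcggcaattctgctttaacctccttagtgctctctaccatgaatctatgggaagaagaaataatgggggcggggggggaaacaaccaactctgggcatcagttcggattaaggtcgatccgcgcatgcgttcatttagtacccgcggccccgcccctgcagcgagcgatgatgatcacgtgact
Mdm2: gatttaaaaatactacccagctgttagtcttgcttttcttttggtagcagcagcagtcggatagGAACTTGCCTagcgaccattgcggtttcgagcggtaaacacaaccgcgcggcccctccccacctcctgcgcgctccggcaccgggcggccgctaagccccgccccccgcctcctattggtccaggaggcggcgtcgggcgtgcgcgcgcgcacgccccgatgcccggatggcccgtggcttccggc
Ccng1: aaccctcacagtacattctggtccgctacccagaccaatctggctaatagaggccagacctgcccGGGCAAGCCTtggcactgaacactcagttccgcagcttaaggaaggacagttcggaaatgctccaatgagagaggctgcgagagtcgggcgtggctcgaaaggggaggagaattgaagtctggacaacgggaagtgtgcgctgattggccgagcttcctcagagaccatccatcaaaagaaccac
With the base before the start counted as -1, the match began at -201 in Bax, at -186 in Mdm2 and at -185 in Ccng1. Cdkn1a held 2 matches, at -73 and -51 of the upstream of its 2 annotated starts, which lie 2790 bp apart. A match of letters is a description of the window and not a bound site, and p53 binding was not measured.

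Other common promoter motifs were searched for in the same windows. The GC box GGGCGG was found in 7 of the 11 windows (5 of the 8 genes) and in 35.7% of all windows. CCAAT was found in 4 of the 11 (4 of the 8 genes) and in 37.4%, and the TATA motif TATAAA in 0 of the 11 and in 13.6%. Fas was the 1 member with the STAT motif TTCNNNGAA (8.30% of all windows), and Bbc3 the 1 member with the NF-kB motif (1.63% of all windows). The interferon response motif was found in 0 of the 8 members and in 3.44% of all windows. GC content of the upstream 250 bases ran from 39.6% in Casp8 to 81.6% in 1 of the 3 windows of Bbc3, with a median of 52.4% over all windows. The Casp8 window (chr1:58802252-58802501, plus strand) and the 3 windows of Bbc3 lie inside the gene spans given below, downstream of their 5′ ends. The bases before those 5′ ends are thus not covered.

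After injury all 9 genes were higher in every SCI mouse than in every Sham mouse, by 1.29-fold for Mdm2 to 5.51-fold for Casp8. Of the 9, 8 rose past both limits of the call, a log2 fold change of at least 0.5 in size and a Benjamini-Hochberg adjusted p under 0.05 over the 18699 genes in edgeR's quasi-likelihood test. Mdm2 alone missed the fold limit. Over all genes tested, 24.4% rose past both limits and 35.6% were higher in every SCI mouse. Because the 9 were chosen with earlier results known, these shares describe the list and do not test it. The median log2 fold change was 1.41 over the members and -0.0031 over all genes tested. In bulk RNA, more or fewer cells of a type and more or less RNA per cell cannot be told apart. With 3 mice against 3 the exact permutation test cannot give a p under 0.1, and it gave p = 0.1 for each of the 9 genes.

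Cell type markers moved between the same groups. The summed level of 10 microglia and macrophage markers was 489 to 657 CPM (counts scaled to the library size of each mouse) in the Sham mice and 2898 to 3546 in the SCI mice, and 9 of the 10 rose. All 10 markers of proliferating cells rose, from 24.9 to 35.3 CPM in sum to 240 to 283 CPM, and all 9 fibroblast and pericyte markers rose, from 536 to 1161 CPM to 9366 to 12592 CPM. All 12 neuron markers fell, from 8060 to 9082 CPM in sum to 2422 to 3468 CPM, and 5 of 8 oligodendrocyte markers fell. Every marker of these lists was detected in each group. The summed oligodendrocyte markers were the highest of these lists in each group, at 32507 to 34094 CPM in Sham and 22805 to 25456 CPM in SCI. In SCI the neuron sum lay below the fibroblast and pericyte sum. Of all the marker lists, 1 gene was at 0 in every mouse of a group (the Schwann cell marker Pmp2, in Sham). Of 8 astrocyte markers 3 rose and 2 fell, and of 8 tested infiltrating leukocyte markers 2 rose and 2 fell. Of 7 endothelial markers 5 rose, of 5 tested Schwann cell markers 1 rose, and of 9 bone and marrow markers 1 fell. Over all genes tested, 24.4% rose and 22.5% fell past both limits. The share of counts from mitochondrial genes was 4.90% to 5.49% in Sham, 2.96% to 3.22% in SCI and 3.21% to 3.54% in SCI+FIPI. The part of these differences in the values of the 9 genes was not tested.

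**Figure D1:**
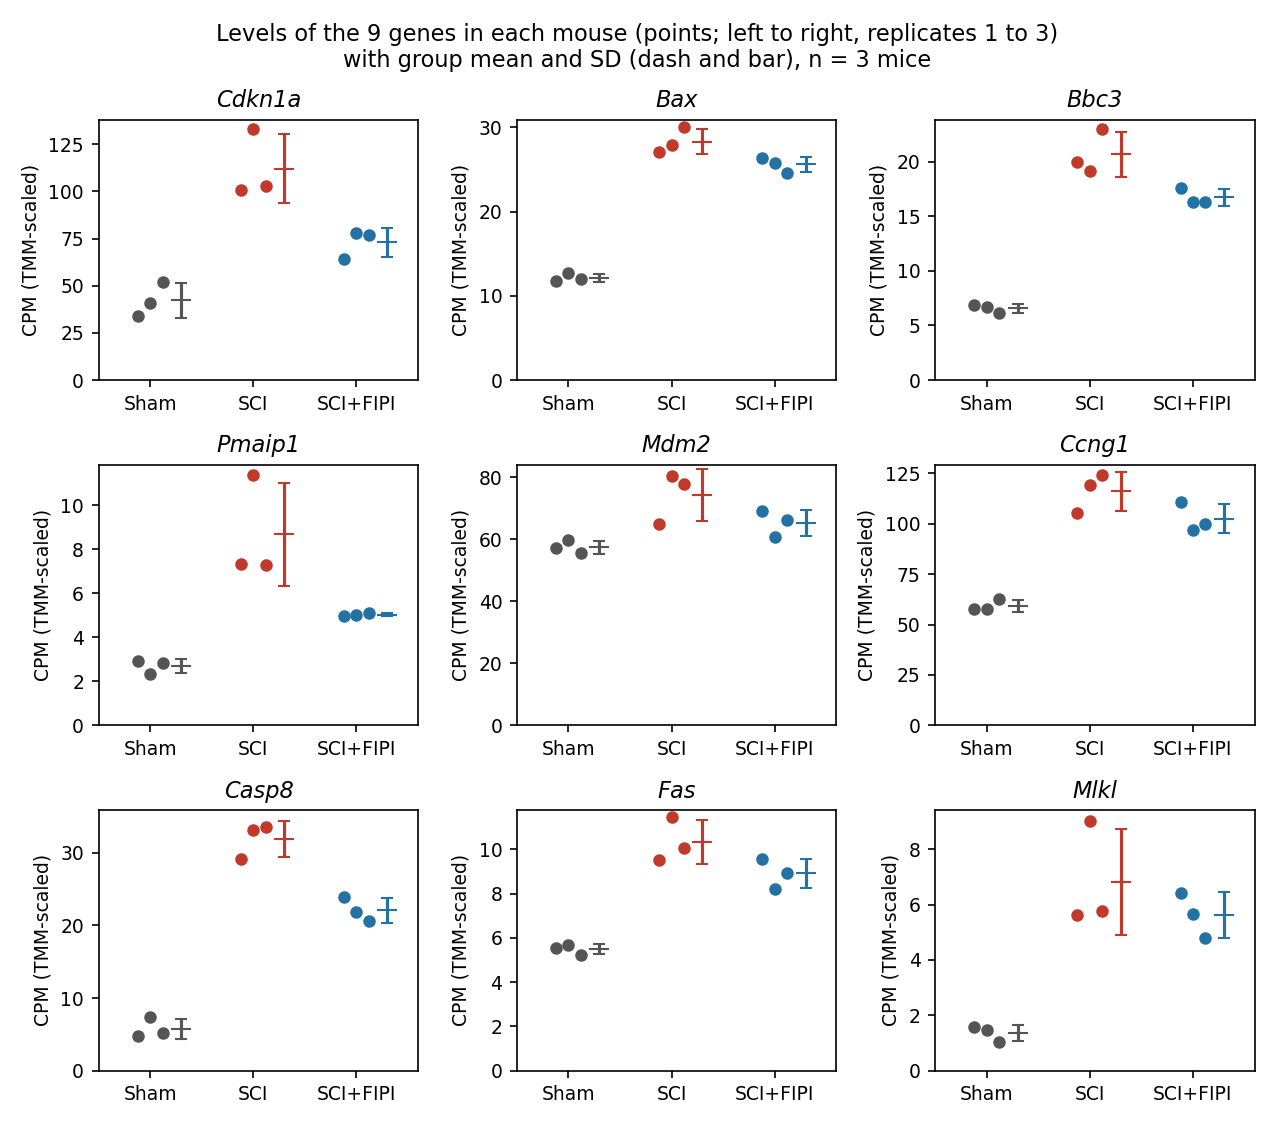
Level of each of the 9 genes in CPM in each of the 9 mice, 1 panel per gene with a linear axis from 0, with points for mice and a dash and bar beside them for the mean and SD of the 3 mice of a group. In every panel the 3 SCI mice and the 3 SCI+FIPI mice lie above the 3 Sham mice.

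The cell cycle genes rose to different extents. Cdkn1a (ENSMUSG00000023067, chromosome 17, 29090976 to 29100727 on the plus strand of GRCm38) encodes p21, which blocks the cyclin-dependent kinases. Its level was 33.9, 40.8 and 52.0 CPM in the Sham mice, 101, 133 and 103 CPM in the SCI mice and 64.3, 77.8 and 76.8 CPM in the SCI+FIPI mice. The 3 groups did not overlap, and the SCI+FIPI mice lay between the other two. In SCI against Sham the log2 fold change was 1.41 ± 0.18 (SE, adjusted p = 0.000152), a 2.65-fold rise. Ccng1 (ENSMUSG00000020326, chromosome 11, 40748552 to 40755311, minus strand) encodes cyclin G1, a p53 target that acts back on the p53 pathway. It was at 57.7, 57.6 and 62.8 CPM in Sham, 105, 119 and 124 CPM in SCI and 111, 96.8 and 99.9 CPM in SCI+FIPI. All injured mice were above all Sham mice, and the injured groups overlapped. The rise in SCI was 1.95-fold (log2 fold change 0.97 ± 0.07, adjusted p = 2.79e-08). Opposite to Cdkn1a lies AC167363.2, which covers 7.68% of its exonic length. The strand setting of the counting is not given, so reads of the pair may be mixed there.

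Mdm2 (ENSMUSG00000020184, chromosome 10, 117688875 to 117710758, minus strand) changed the least. Its level was 57.1, 59.6 and 55.6 CPM in Sham, 64.8, 80.3 and 77.7 CPM in SCI and 69.0, 60.7 and 66.3 CPM in SCI+FIPI. The SCI mice all lay above the Sham mice, while SCI and SCI+FIPI overlapped. In SCI against Sham the log2 fold change was 0.37 ± 0.08 (SE), and the adjusted p of 0.000785 passed its limit where the fold change did not.

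The mitochondrial death genes rose between 2.33-fold and 3.21-fold. Bax (ENSMUSG00000003873, chromosome 7, 45461697 to 45466898, minus strand) encodes the protein that forms pores in the outer mitochondrial membrane. It was at 11.8, 12.7 and 11.99 CPM in Sham, 27.0, 27.9 and 29.996 CPM in SCI and 26.4, 25.8 and 24.6 CPM in SCI+FIPI. Its 2 injured groups lay close together and far above Sham, with a log2 fold change of 1.22 ± 0.08 in SCI against Sham (adjusted p = 6.23e-09). Bbc3 (ENSMUSG00000002083, chromosome 7, 16308393 to 16318205, plus strand) encodes PUMA, a BH3-only protein that unleashes Bax and its relative Bak. Its level was 6.90, 6.65 and 6.10 CPM in Sham, 19.9, 19.1 and 23.0 CPM in SCI and 17.6, 16.3 and 16.3 CPM in SCI+FIPI, so the 3 groups did not overlap. The log2 fold change in SCI was 1.66 ± 0.10 (adjusted p = 3.95e-09). Pmaip1 (ENSMUSG00000024521, chromosome 18, 66458533 to 66465565, plus strand) encodes NOXA, a BH3-only protein that neutralises the survival protein MCL1. It was a low gene, at 2.92, 2.33 and 2.84 CPM in Sham, 7.34, 11.4 and 7.30 CPM in SCI and 4.96, 5.001 and 5.12 CPM in SCI+FIPI. These 3 groups were separate too, and SCI mouse 2 stood above its group. The log2 fold change in SCI was 1.68 ± 0.19 (adjusted p = 1.68e-06). Of the 50-base stretches of Bax, 13.8% also occur in another gene, and Gm45808 covers 12.2% of its exonic length on the same strand, so part of its count is uncertain.

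Casp8 and Mlkl rose the most of the 9, and Fas rose less. Fas (ENSMUSG00000024778, chromosome 19, 34290666 to 34327772, plus strand) was at 5.56, 5.66 and 5.22 CPM in Sham, 9.52, 11.5 and 10.04 CPM in SCI and 9.57, 8.22 and 8.93 CPM in SCI+FIPI. Its injured groups overlapped, and the rise in SCI was 1.89-fold (log2 fold change 0.92 ± 0.12, adjusted p = 9.77e-06). Casp8 (ENSMUSG00000026029, chromosome 1, 58795374 to 58847503, plus strand) was at 4.84, 7.34 and 5.14 CPM in Sham, 29.1, 33.1 and 33.5 CPM in SCI and 23.9, 21.8 and 20.6 CPM in SCI+FIPI. Its 3 groups did not overlap, and the log2 fold change in SCI was 2.46 ± 0.13 (adjusted p = 1.54e-09). Mlkl (ENSMUSG00000012519, chromosome 8, 111311797 to 111338177, minus strand) was the lowest of the 9 in Sham at 1.58, 1.47 and 1.04 CPM, from 25 to 34 counts per mouse. It reached 5.62, 9.01 and 5.78 CPM in SCI and 6.44, 5.68 and 4.78 CPM in SCI+FIPI. Both injured groups lay above Sham and overlapped each other, and SCI mouse 2 was again the highest. The log2 fold change in SCI was 2.32 ± 0.24 (adjusted p = 5.68e-07).

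Lengths of the genes differ, so the order of their levels was taken per kilobase of exon (FPKM). In Sham, Ccng1 stood highest at 17.0 ± 0.710 FPKM (SD, n = 3), above Cdkn1a (11.97 ± 2.51) and Mdm2 (11.4 ± 0.558), which overlapped. Bax followed at 7.76 FPKM and Bbc3 at 3.11 FPKM, above Fas (2.68) and Casp8 (2.01), which overlapped, and above Pmaip1 (0.994) and Mlkl (0.597). In SCI the order had moved. Cdkn1a (31.2 ± 4.95 FPKM) overlapped with Ccng1 (32.6 ± 2.67) at the top, Bax (17.7) stood above Mdm2 (14.4), and Casp8 (10.9) overlapped with Bbc3 (9.61), above Fas (4.95), Pmaip1 (3.13) and Mlkl (2.91). In SCI+FIPI Ccng1 (29.2 FPKM) was above Cdkn1a (20.6) in every mouse, and Casp8 (7.66) overlapped with Bbc3 (7.90). Mlkl (2.45 FPKM) was above Pmaip1 (1.85) in every SCI+FIPI mouse, where these 2 genes overlapped in SCI.

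The comparison of SCI+FIPI with SCI asks how treatment with FIPI bears on the injured cord. The study also describes off-target activities of FIPI and gives no phospholipase D activity for these mice, so inhibition of the enzymes and other actions cannot be told apart. All 9 genes had a lower mean in SCI+FIPI than in SCI, and 2 of them, Pmaip1 and Casp8, fell past both limits. DESeq2 and limma-voom each called 3. Over all genes tested, 0.695% fell past both limits and 2.36% rose. In 5 of the 9 genes (Cdkn1a, Bax, Bbc3, Pmaip1 and Casp8) every SCI+FIPI mouse was lower than every SCI mouse, against 14.5% of all genes. The median log2 fold change was -0.27 over the members and -0.0013 over all genes tested. The SCI mice enter this comparison and the previous one, so the 2 comparisons are not independent of each other.

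Pmaip1 fell by 42.0% in SCI+FIPI, from 8.67 ± 2.34 to 5.03 ± 0.0807 CPM (SD, n = 3 each; log2 fold change -0.79 ± 0.18, adjusted p = 0.0151). Casp8 fell by 30.8%, from 31.9 ± 2.45 to 22.1 ± 1.70 CPM, with a log2 fold change of -0.53 ± 0.12 and an adjusted p of 0.0149 in edgeR's test. Both calls depended on single mice. Without SCI mouse 2 the log2 fold changes were -0.54 for Pmaip1 (adjusted p = 0.0731) and -0.51 for Casp8 (adjusted p = 0.0592). Without SCI+FIPI mouse 2 the adjusted p rose to 0.0728 for Pmaip1 and 0.0791 for Casp8, and Casp8 also missed the limit without SCI mouse 3 (0.0540) or SCI+FIPI mouse 3 (0.0596). The values of each mouse show where the groups stand, since the 3 SCI+FIPI mice of Pmaip1 spanned 4.96 to 5.12 CPM and the lowest SCI mouse was at 7.30 CPM.

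Cdkn1a had a larger difference than Casp8 and a larger error. Its mean was 112 ± 18.2 CPM in SCI and 73.0 ± 7.49 CPM in SCI+FIPI (SD, n = 3 each), with a log2 fold change of -0.62 ± 0.17 and a 95% confidence interval of -1.02 to -0.22. The adjusted p was 0.0621, so the gene was not called. It passed with DESeq2 (adjusted p = 0.000479), with limma-voom (0.0464) and with edgeR fitted only to the SCI and SCI+FIPI mice (0.0234), and over all alternatives the adjusted p ran from 0.000479 to 0.162. Bbc3 was close to the p limit but not to the fold limit, with a log2 fold change of -0.30 ± 0.10 (adjusted p = 0.0592).

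The other 5 members differed less. Bax was at 28.3 ± 1.52 CPM in SCI and 25.6 ± 0.890 CPM in SCI+FIPI, a log2 fold change of -0.15 with an interval of -0.31 to 0.02 (adjusted p = 0.252). Ccng1 (-0.18, interval -0.33 to -0.03, adjusted p = 0.129) and Mdm2 (-0.19, interval -0.35 to -0.02, adjusted p = 0.156) had overlapping groups. So did Fas, at -0.22 with an interval of -0.47 to 0.04 (adjusted p = 0.275). Mlkl was the least certain, at -0.27 with an interval of -0.71 to 0.16 (adjusted p = 0.436), and with mice of SCI+FIPI both above and below the lower SCI mice. Without SCI mouse 2 it was at -0.019 (adjusted p = 0.974) and without SCI+FIPI mouse 3 at -0.17 (adjusted p = 0.719), and Fas was at -0.14 (adjusted p = 0.622) without SCI mouse 2. These intervals cover no difference in Bax, Fas and Mlkl, and they also cover a fall of the size of Casp8 in Mlkl.

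Marker levels in the injured groups are given beside these values. The summed microglia and macrophage markers were at 2898 to 3546 CPM in SCI and 2316 to 2676 CPM in SCI+FIPI, where edgeR called 0 of the 10 and DESeq2 1, with 4 at an unadjusted p under 0.05. Markers of proliferating cells were at 240 to 283 CPM in SCI and 188 to 230 CPM in SCI+FIPI, with 0 of 10 called by edgeR, DESeq2 or limma-voom and 8 at an unadjusted p under 0.05. The share of all genes at that unadjusted limit was not counted, so the counts at it have no background beside them. Every SCI+FIPI mouse was lower than every SCI mouse in 9 of the 10 microglia and macrophage markers. The same held in 6 of the 10 markers of proliferating cells, against 14.5% of all genes. In 0 markers of either list was every SCI+FIPI mouse higher. Of the 12 neuron markers 7 rose in SCI+FIPI, from 2422 to 3468 CPM in sum to 4043 to 4801 CPM. Of the 9 fibroblast and pericyte markers edgeR called 1 lower, and of the 9 bone and marrow markers 1 higher. It called 0 of 8 oligodendrocyte, 8 astrocyte, 8 tested infiltrating leukocyte, 7 endothelial and 5 tested Schwann cell markers. Schwann cell markers were uneven, at 485, 1015 and 1014 CPM in sum in SCI+FIPI mice 1, 2 and 3 and 620 to 787 CPM in SCI. Bone and marrow markers were at 67.6, 175 and 230 CPM in the same SCI+FIPI mice and 94.9 to 209 CPM in SCI. The part of these shifts in the values of the 9 genes was not tested.

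**Figure D2:**
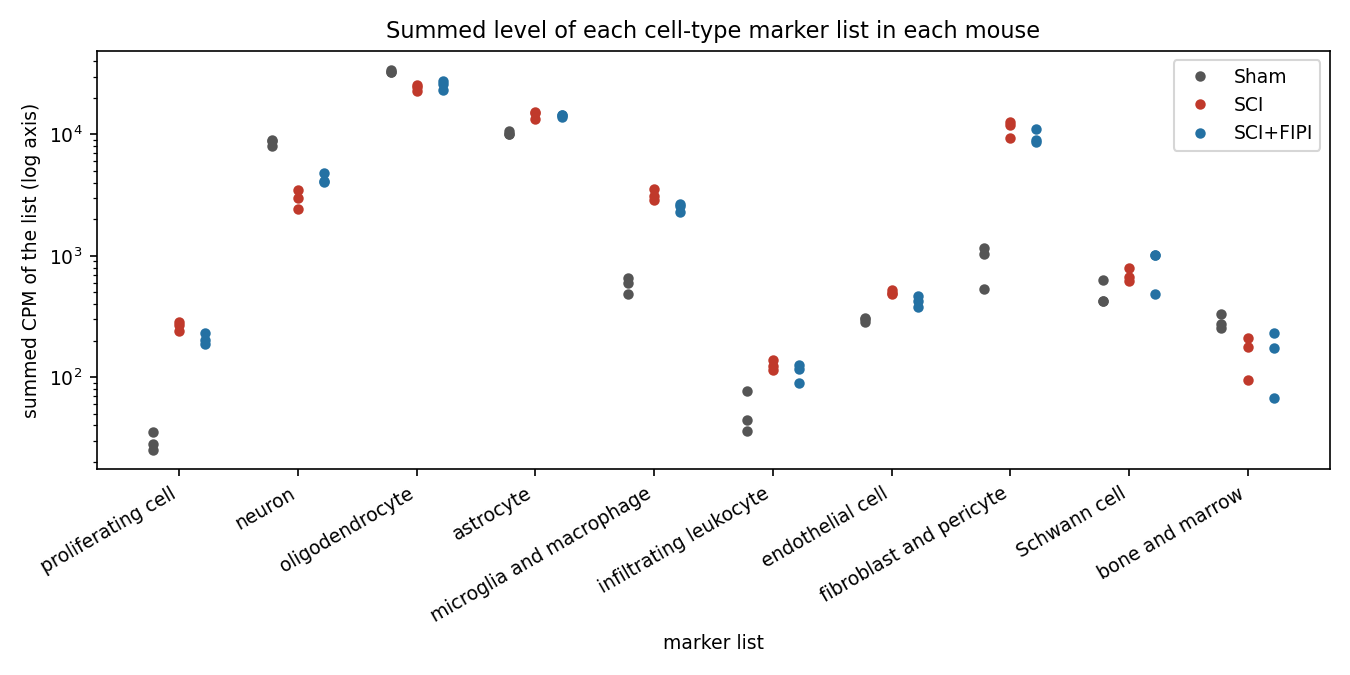
Summed CPM (logarithmic axis) of the marker lists of cell types in each mouse, by group. Microglia and macrophage markers lie at 489 to 657 in Sham, 2898 to 3546 in SCI and 2316 to 2676 in SCI+FIPI, and neuron markers run the other way.

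**Figure D3:**
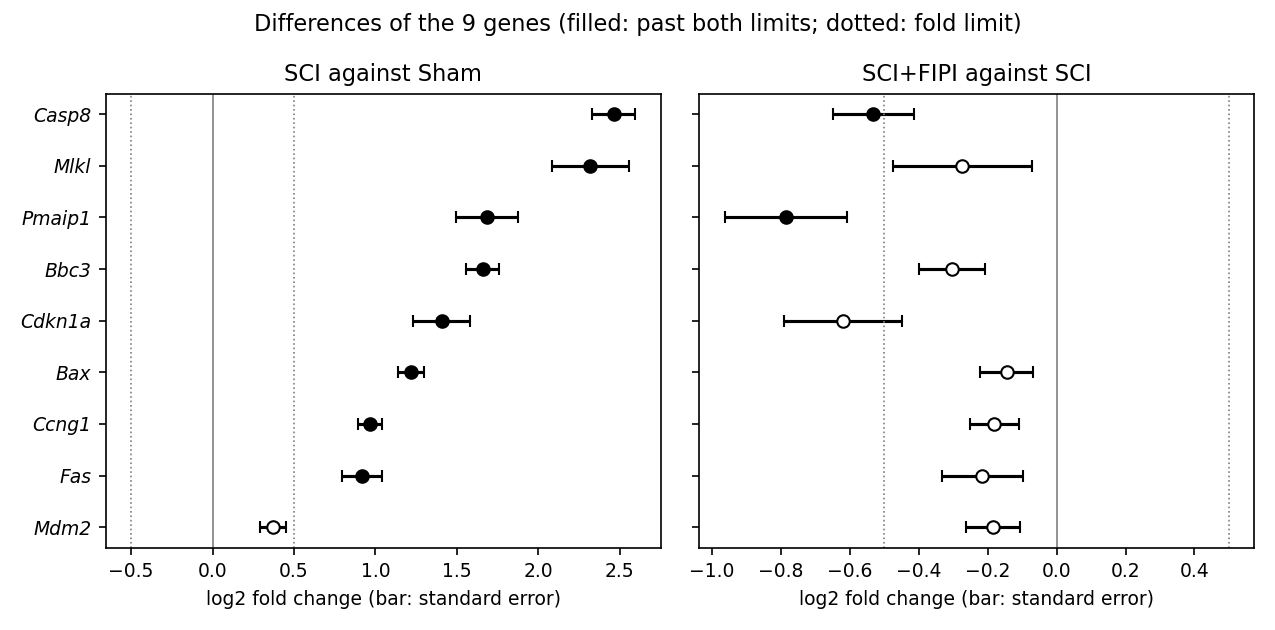
Log2 fold change with its standard error for each of the 9 genes in SCI against Sham (left) and SCI+FIPI against SCI (right), from edgeR's model of all 9 mice. Filled points pass both limits of the call, and dotted lines mark the fold limit of 0.5. In SCI+FIPI against SCI all 9 points lie below 0 and only Pmaip1 and Casp8 pass.

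Against Sham, the members stood higher in SCI+FIPI too. All 9 genes were higher in every SCI+FIPI mouse than in every Sham mouse, and 8 of the 9 rose past both limits, against 33.4% and 21.2% of all genes. The log2 fold changes of the 8 ran from 0.70 in Fas to 2.05 in Mlkl. Cdkn1a (0.79, adjusted p = 0.0053) and Pmaip1 (0.90, adjusted p = 0.00109) had the largest adjusted p among the 8. Casp8 was still 3.81-fold and Mlkl 4.13-fold the Sham level. Mdm2 was not called, at 0.19 ± 0.08 (adjusted p = 0.0579). Both groups of this comparison also enter the comparisons above.

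The genes also differed in how far mice of a group lay apart. The within-group SD of Cdkn1a was 0.24 on the log2 scale, where genes of similar level had a median of 0.08, and 97.6% of those 2670 genes had a smaller SD. Its Sham mice alone ran from 33.9 to 52.0 CPM. Casp8 had an SD of 0.21 (87.6% of similar genes were below it), with Sham mouse 2 at 0.37 above its group mean. Bax was at the other end, with an SD of 0.06 and 7.16% of similar genes below it. SCI mouse 2 was the highest of its group for 5 members (Cdkn1a, Pmaip1, Mdm2, Fas and Mlkl) and SCI mouse 3 for the other 4, and SCI mouse 1 was the lowest for 7. Among the SCI+FIPI mice, mouse 1 was the highest for 7 members.

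**Figure D4:**
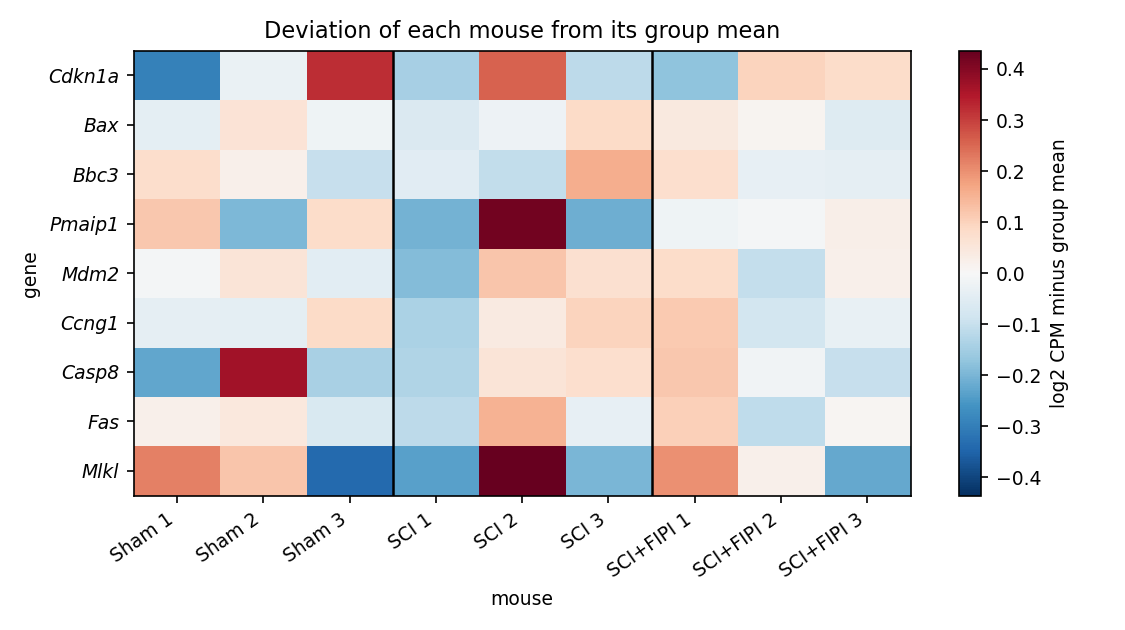
Deviation of each mouse from the mean of its group, in log2 CPM, for each of the 9 genes, as a color map with red above and blue below the mean. SCI mouse 2 stands out in Pmaip1 (0.42) and Mlkl (0.44). Among the Sham mice, mouse 2 stands out in Casp8 (0.37), mouse 3 in Mlkl (-0.34) and mice 1 and 3 in Cdkn1a (-0.29 and 0.32).

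For each member the 2 protein-coding genes with the most similar course over the 9 mice were found by the root-mean-square distance of their centred log2 CPM. Mlkl was nearest to Prr11 (0.17) and Slamf9 (0.18). Casp8 was nearest to Mcm6 (0.09), which encodes a subunit of the replicative helicase, and to Arhgap19 (0.10). The nearest genes of Cdkn1a were the kinase genes Pim1 (0.13) and Sgk1 (0.14), and those of Pmaip1 were Sap30 (0.14) and Trib1 (0.15). Closer partners were found for Bax, with the ribosomal protein gene Rps18 (0.05) and the translation factor gene Eif4a1 (0.05), and for Ccng1, with Idh1 (0.05) and Nras (0.05). Bbc3 lay nearest to Sirpa (0.05) and Man1c1 (0.06), Fas to Lmf2 (0.06) and Rragc (0.06), and Mdm2 to Nfxl1 (0.05) and Picalm (0.05). These distances describe likeness over 9 mice that share 3 group means.

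Other genes of the same pathways were taken as lists by role, 91 genes beside the 9, of which 89 were tested. These lists too were chosen with earlier results of these data known. In SCI against Sham 49 of the 89 rose and 9 fell past both limits, where 24.4% and 22.5% of all genes did. Their median log2 fold change was 0.62. With FIPI 0 rose and 4 fell with edgeR, with a median of -0.15, against 2.36% and 0.695% of all genes. The 4 were Chek2, Gtse1, Bcl2a1a and Tnf. In 24 of the 89 every SCI+FIPI mouse was lower than every SCI mouse, against 14.5% of all genes, and in 4 every one was higher. DESeq2 called 3 and limma-voom 5, all lower, and at an unadjusted p under 0.05 edgeR's test held 24 lower and 4 higher. The share of all genes at that unadjusted limit was not counted, here or for the lists below, so such counts have no background beside them. In SCI+FIPI against Sham 43 rose and 8 fell, where 21.2% and 17% of all genes did. Without SCI mouse 3 or without SCI+FIPI mouse 2, 0 genes of the lists were called, 1 was without SCI mouse 2 and 2 were without SCI+FIPI mouse 3.

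Of p53 and its regulators, 4 of 13 rose and 2 fell after injury, where 24.4% and 22.5% of all genes did. Their median log2 fold change was -0.14, with 5 above and 8 below 0, so the list as a whole stood near the share of all genes. The same shares of all genes stand beside the injury counts of the lists below. Trp53, which encodes p53 itself, rose from 34.5 to 63.0 CPM (log2 fold change 0.87, adjusted p = 9.01e-08) and was at 56.6 CPM in SCI+FIPI (-0.15 against SCI, adjusted p = 0.200). Mdm4, the partner of Mdm2 in holding p53 back, was at 131, 122 and 117 CPM in Sham, SCI and SCI+FIPI, with log2 fold changes of -0.10 (adjusted p = 0.127) and -0.06 (adjusted p = 0.523). With offsets for GC content and length its value in SCI against Sham turned to 0.26, under the fold limit (adjusted p = 0.000282 in edgeR's test). Chek2, a kinase that phosphorylates p53 after DNA breaks, rose from 4.29 to 11.3 CPM in SCI (1.39, adjusted p = 8.18e-07) and fell by 0.56 on the log2 scale with FIPI, to 7.62 CPM (adjusted p = 0.0216). Trp53bp1, a DNA break factor that binds p53, fell by 0.85 after injury, and the kinase gene Hipk2 fell by 0.61, or by 0.49 without Sham mouse 3, which is under the fold limit. Of 28 further p53 targets, 14 rose and 3 fell. Gdf15, a stress cytokine gene, rose from 0.57 to 12.4 CPM and was at 7.89 CPM in SCI+FIPI (-0.65 against SCI, adjusted p = 0.238). Gtse1, a gene of dividing cells whose product acts on p53, rose from 1.85 to 9.96 CPM in SCI and was at 6.46 CPM in SCI+FIPI, where it fell (-0.62, adjusted p = 0.0148). Tigar, a regulator of sugar metabolism, fell by 0.96 after injury and Zmat3, an RNA-binding protein gene, fell by 0.59, which dropped below the fold limit with offsets for GC content and length (-0.39).

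Death-promoting relatives of Bax, Bbc3 and Pmaip1 rose widely, in 7 of 8 genes after injury. Between SCI+FIPI and SCI edgeR, DESeq2 and limma-voom each called 0 of the 8, and 3 had an unadjusted p under 0.05 in edgeR's test, all lower. Bcl2l11, which encodes the BH3-only protein BIM, rose from 8.68 to 43.2 CPM (2.32, adjusted p = 1.2e-10), and Bak1, the partner of Bax in pore formation, from 15.1 to 45.6 CPM (1.60, adjusted p = 3.88e-09). They were at 37.8 and 42.3 CPM in SCI+FIPI, with log2 fold changes against SCI of -0.19 and -0.11 (adjusted p = 0.185 and 0.507). Of the survival members 4 of 7 rose and 1 fell. Mcl1, the target of NOXA, rose from 102 to 271 CPM (1.40, adjusted p = 3.63e-09) and was at 213 CPM in SCI+FIPI, a log2 fold change of -0.35 that missed the fold limit (adjusted p = 0.0196). Bcl2l1, which encodes BCL-XL, was at 115, 162 and 128 CPM, with log2 fold changes of 0.49 and -0.34 that also missed it. The first lay at the limit, and Bcl2l1 was called in SCI against Sham under 5 alternatives, with values of 0.50 to 0.57, among them without Sham mouse 3 (0.55) and without SCI mouse 3 (0.57). Bcl2 itself was at 32.7, 29.1 and 28.2 CPM and was called in neither comparison. Bcl2l2 fell by 0.67 after injury. Bcl2a1d rose (2.32) and Bcl2a1a fell with FIPI (-0.93, adjusted p = 0.0416), but these copies are nearly identical and their reads may be split, so both values are uncertain.

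The ratio of Bax to Bcl2 in FPKM, chosen after the values were seen, was 2.01, 2.43 and 2.06 in the Sham mice, 5.503, 5.48 and 5.996 in the SCI mice and 5.70, 5.60 and 4.63 in the SCI+FIPI mice. It was higher in every injured mouse than in every Sham mouse (exact permutation p = 0.1, the smallest that 3 against 3 mice allow). The injured groups overlapped, at 5.66 ± 0.292 in SCI and 5.31 ± 0.590 in SCI+FIPI (SD, n = 3 each; exact permutation p = 0.6).

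Downstream of the mitochondria, 6 of 12 apoptosome and caspase genes rose after injury and 2 fell. Casp6, a caspase gene, rose by 1.68 on the log2 scale (adjusted p = 1.56e-08). Casp9, the initiator of the apoptosome, had a log2 fold change of 0.34 that missed the fold limit. Cytochrome c (Cycs, -0.72) and the inhibitor of the apoptotic nuclease (Dffa, -1.07) fell. With FIPI 0 of the 12 passed both limits with edgeR, DESeq2 or limma-voom, and 3 had an unadjusted p under 0.05 in edgeR's test.

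In the death receptor list 10 of 14 tested genes rose after injury and 1 fell. The receptor gene Tnfrsf1a rose from 42.1 to 175 CPM (2.05, adjusted p = 1.22e-08) and was at 133 CPM in SCI+FIPI (-0.39, adjusted p = 0.0361, under the fold limit). Fadd, the adaptor between Fas and caspase-8, rose (1.11, adjusted p = 2.08e-05), and Cflar, which encodes the decoy FLIP that restrains caspase-8, rose from 30.002 to 66.8 CPM (1.15, adjusted p = 4.48e-09). They were at -0.12 (adjusted p = 0.677) and -0.27 (adjusted p = 0.0281) in SCI+FIPI against SCI. Fasl, the ligand of Fas, had 1 to 9 counts in each mouse and was not tested. The cytokine gene Tnf rose from 0.38 to 3.16 CPM and was at 1.56 CPM in SCI+FIPI, where it fell (-1.02, adjusted p = 0.0408), on 30 to 101 counts in an injured mouse. The injured groups touched, with SCI mouse 1 and SCI+FIPI mouse 1 both at 2.01 CPM. Cyld, a deubiquitinase gene, fell by 0.74 after injury, and its value of -0.42 with offsets for GC content and length missed the fold limit.

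Partners of Mlkl in necroptosis rose after injury in 4 of 6 genes. Between SCI+FIPI and SCI 0 of the 6 were called by edgeR, DESeq2 or limma-voom, and 2 had an unadjusted p under 0.05 in edgeR's test. Ripk3, which encodes the kinase that phosphorylates MLKL, rose from 0.66 to 10.1 CPM (3.93, adjusted p = 3e-08) and was at 8.498 CPM in SCI+FIPI (-0.25, adjusted p = 0.475). Ripk1 rose from 10.4 to 34.8 CPM (1.74, adjusted p = 2.24e-09) and was at 29.9 CPM (-0.22, adjusted p = 0.161). Zbp1, a sensor of nucleic acids, rose as well (2.11, adjusted p = 0.00234). Of 6 other inhibitors of cyclin-dependent kinases, 4 rose after injury, led among the named genes by Cdkn2c (2.48, adjusted p = 2.04e-10) and Cdkn2b (2.36, adjusted p = 1.12e-07). Cdkn1b, which encodes the related inhibitor p27, was at 0.03 (adjusted p = 0.762). With FIPI 0 of the 6 passed in edgeR's test, 2 had an unadjusted p under 0.05, and limma-voom called 1 and DESeq2 0.

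**Figure D5:**
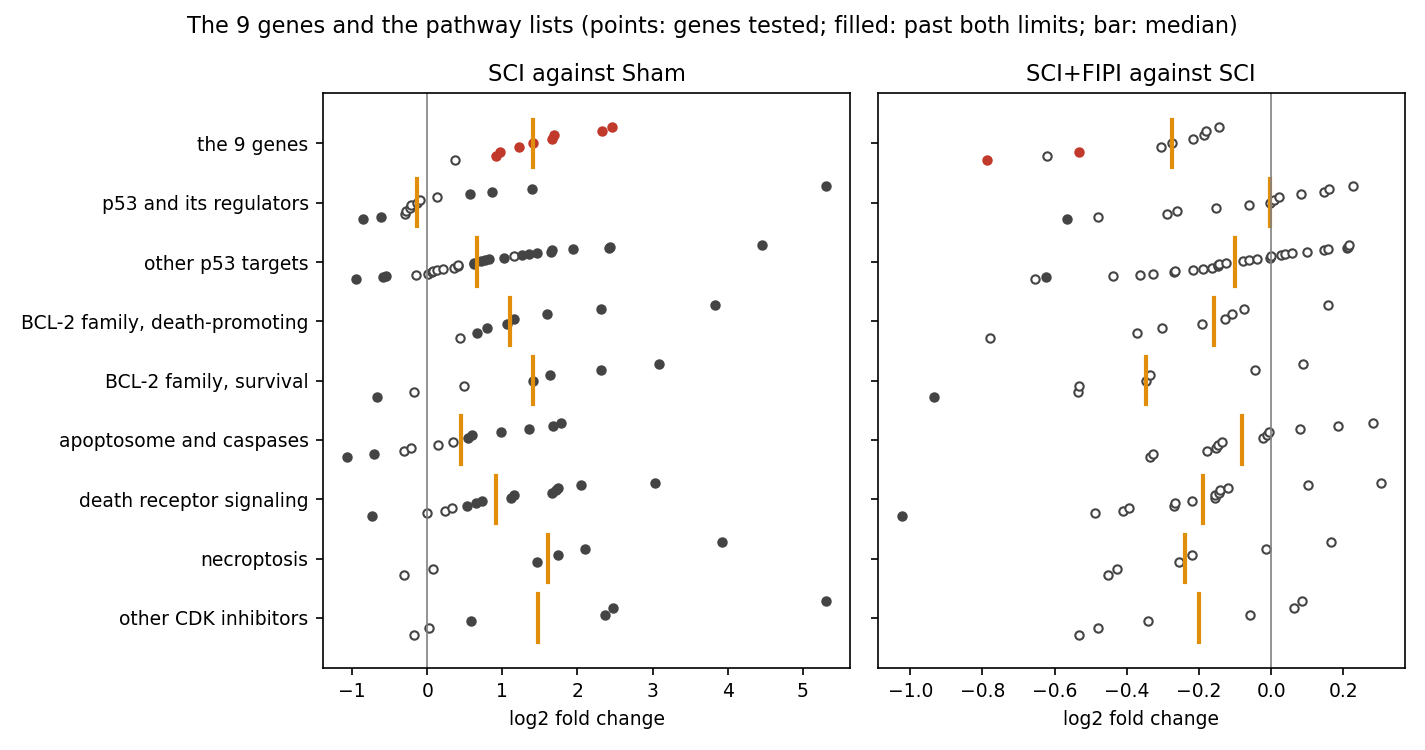
Log2 fold change of every tested gene of each pathway list, 1 point per gene, in SCI against Sham and in SCI+FIPI against SCI. Filled points pass both limits of the call, orange bars are medians, and a gene of 2 lists is drawn in both. The point farthest to the right in the left panel is Cdkn2a, which had 0 to 2 counts in each Sham mouse, so its position depends on the model. After injury 49 of the 89 list genes rose and 9 fell, and in SCI+FIPI against SCI 0 rose and 4 fell.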

How the data were processed

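RNA of the injured or sham-operated cord was sequenced in 9 mice, 3 per group. The authors deposited raw counts of reads per Ensembl gene, without normalization. The genome build GRCm38 and R 4.2.3 come from the submitters' processing notes, and the aligner, the counting program and its strand setting are not given in the sources used here. The library kit marked the second strand per the labels. Groups were taken from the sample labels, and the labels do not say how the mice of a group are related. The p-values of the main edgeR fit therefore measure only the spread between these mice within their groups. That spread was pooled over all 9 mice and also drew on the spread of other genes. The Sham mice thus enter the p-values of SCI+FIPI against SCI. All 9 columns were used.

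Counts per mouse totalled 20806000 to 24016169 in Sham, 23981165 to 24582377 in SCI and 22364964 to 23703938 in SCI+FIPI, so that genes such as Mlkl in Sham rest on few counts. The chi-square per gene between mice of a group was 6.76 to 13.2, above sampling noise in each pair. Identifiers were matched to GENCODE M21, which holds 52403 of the 52550, and all 189 listed symbols matched. Counts were fitted in R 4.3.3 with edgeR 4.0.16 (TMM factors, filterByExpr, robust quasi-likelihood fit of 1 mean per group to all 9 mice, 6 residual degrees of freedom), with Benjamini-Hochberg adjustment over 18699 genes. The biological coefficient of variation was 9.30%. The fold and p limits are those of the study's methods, which name no test. CPM used the TMM factors, each member was further tested on log2 CPM (prior count 2) by two-sided exact permutation of the mice, and FPKM used the exonic length. Promoter windows came from RefSeq (GRCm38.p6) and were searched with Python 3.11.15, and no entry was used for Pmaip1.

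The members, the pathway lists and the marker lists were chosen with earlier results of these data known. Named are the 9 members in each comparison, a set of direct partners (such as Trp53, Mdm4, Bcl2, Ripk3 and Mcl1), up to 2 of the largest rises and falls of each pathway list among called genes that average a log2 CPM of 1 or more and whose groups do not overlap, and the 2 nearest genes of each member. Bcl2a1a and Tnf are named outside that rule, after their values were seen, because they complete a count of 4. Not every gene that the rule covers is reported here.

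Other settings tried were upper-quartile or RLE factors, all genes unfiltered, 10 counts required of every mouse, DESeq2 1.42.0, limma-voom (limma 3.58.1), edgeR on the groups compared alone, a block for the replicate number, GC and length offsets (available for 99.9% of tested genes), the block with the offsets, a table without Y-linked, hemoglobin and mitochondrial genes, other fold limits, and each mouse left out in turn. On simulated counts for SCI against Sham with 18699 genes and 200 of the better expressed changed 2-fold, the edgeR fit recovered 192 with 5 false calls, and it made 0 calls when none was changed. The 200 are far fewer than the 8780 genes called in the measured counts. Smaller changes were not simulated and SCI+FIPI against SCI was not scored, so recovery there is not known.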

Additional observations from a re-analysis of the deposited data

How the results depend on the processing

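Over the alternatives, 153 of 153 values of the members in SCI against Sham kept their direction and their side of the limits, as did 153 of 153 in SCI+FIPI against Sham. In SCI+FIPI against SCI 142 of 153 did, 6 lost the call and 5 gained it, and 0 changed sign. The 5 gains were all of Cdkn1a. At a log2 fold change of at least 1, 0 members were called in SCI+FIPI against SCI and 4 in SCI+FIPI against Sham. With each mouse left out in turn, the members called in SCI+FIPI against SCI numbered 0 to 2, the other pathway genes called 0 to 5, and all genes called 189 to 1038 (572 with all mice). The 0 members were reached without SCI mouse 2 or SCI+FIPI mouse 2, and 1 was called without mouse 3 of either group.

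Mice with the same number are not stated to be related. The deviations of same-numbered mice correlated at -0.07 to 0.11, over 0.1 in 1 of 9 pairs, and the own number gave the highest correlation in 9 of 18 cases. With the replicate number as a block, 3 members were called in SCI+FIPI against SCI, Cdkn1a included (adjusted p = 0.0161), and 2 other pathway genes, also 2 with the block and offsets for GC content and length. It changed 0 other member calls.

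Signs turned only in values that missed the fold limit. With the GC and length offsets, without and with the block, Mdm4 was at 0.26 and 0.26 in SCI against Sham (adjusted p = 0.000282 and 0.000938 in edgeR's test). In SCI+FIPI against Sham it was at 0.15 and 0.15 (adjusted p = 0.0186 and 0.0318). These values of Mdm4 passed the p limit. Under the same settings Bcl2 was at 0.00086 and 0.0024 in SCI against Sham. In SCI+FIPI against SCI Casp9 was at 0.0099 with upper-quartile factors and ran from -0.039 to 0.046 with a mouse left out, above 0 without SCI mouse 3 or SCI+FIPI mouse 2. Fadd ran from -0.27 to 0.010, above 0 without SCI mouse 1. The causes were not tested. Every scaling moved the median of all genes by at most 0.07. Mlkl rests on few counts in Sham (25 to 34 per mouse), which limits its precision.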

Other observations

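A few genes of the pathway lists stood out by their counts and were picked after their values were seen. Cdkn2a, which encodes the p53 activator ARF and the inhibitor p16, had 1, 2 and 0 counts in the Sham mice, 34, 47 and 60 in the SCI mice and 39, 36 and 23 in the SCI+FIPI mice. Bik, a death-promoting member of the BCL-2 family, ran from 1 or 2 counts in Sham to 20, 23 and 37 in SCI and 22, 16 and 7 in SCI+FIPI. Btg2, an early p53 target that slows the cell cycle, was uneven within a group, with 386, 417 and 1209 counts in the SCI+FIPI mice against 459, 710 and 744 in the SCI mice and 256, 319 and 239 in the Sham mice. Its log2 fold change in SCI against Sham was 1.15 and did not pass the test (adjusted p = 0.0812).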
